A study of Homo sapiens with 6 samples.

Results

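The genes described here were 10 transcription factor genes of the myeloid lineage, SPI1, CEBPA, CEBPB, CEBPE, RUNX1, GFI1, MYB, GATA2, LMO2 and IRF8, chosen by name out of 19812 protein-coding genes. Every peak of SUMO-2/3, the small ubiquitin-related modifiers 2 and 3, was taken from 50 kb upstream to 50 kb downstream of each gene in hg19, and these stretches are called windows below. The peaks came from chromatin immunoprecipitation and sequencing (ChIP-seq) of HL-60, an established line from a human promyelocytic leukaemia, after 2 h of treatment. Mock cells received H2O, and the drugs were 2 µM cytosine arabinoside (Ara-C), a nucleoside analogue, or 1 µM daunorubicin (DNR), an anthracycline. Chromatin of 3 biological replicates was pooled before sequencing, so each treatment had 1 library and 1 peak list, no test between treatments was possible, and all intervals below are 95% intervals that cover counting error only, with the limit on a density or number of 0 set at 3 counts. There were 44265 peaks in mock, 72279 in Ara-C and 33355 in DNR cells, of which 75, 94 and 29 fell in the 10 windows. The lists gave positions alone, without read numbers or heights. Library depth is therefore unknown, and a difference of depth and a difference of treatment cannot be told apart. Width was the only measure of the size of a peak. It is the length of a run above the calling threshold, and how it relates to signal height was not tested. The myeloid identity of the cells could not be checked against expression markers in these lists, and the copy number of the windows was not measured.

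These genes encode the factors that steer blood progenitors into granulocytes and monocytes. RUNX1, GATA2, LMO2 and MYB act in stem and progenitor cells, PU.1 (the product of SPI1) and the C/EBP proteins drive the myeloid programme, and GFI1 and IRF8 act on the granulocytic and the monocytic branch. Several of them are controlled by distal elements as well as promoters, among them an element upstream of SPI1, enhancers downstream of CEBPA and CEBPE, and an intronic enhancer of RUNX1 between its distal and proximal promoters. SUMO is attached to many transcription factors and co-regulators on chromatin, where it often dampens or stabilises their activity. The files held no map of these elements, and no peak was assigned to one.

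Most regions in the windows were called in a single list. Merging the peaks of the 3 lists gave 168 regions in the windows, of which 141 (83.9%, 77.6 to 88.7) were called in 1 list, against 93.7% of all 140029 regions of the lists merged in the same way. Another 21 were called in mock and Ara-C, 3 in all 3 lists, 2 in Ara-C and DNR, and 1 in mock and DNR. No share of all regions is given beside these counts. The sequences below are the stretches shared by those lists at 10 of these regions, chosen after their matches had been seen from 18 shared stretches without an annotated exon, cut to the central 300 bp where longer, from hg19, plus strand. They are shown because they were the places at which SUMO-2/3 was called again after a drug, at promoters or at distal sites. Capitals mark the letters of motifs searched on both strands, which were GAGGAAGT for PU.1, TTGCNNAA for C/EBP, TGTGGT for RUNX, AGATAA for GATA, GAAANNGAA for IRF, TAACNG for MYB, TGANTCA for AP-1 and the core consensus for CTCF.
CEBPE, downstream flank, all 3 lists, chr14:23582951-23583150: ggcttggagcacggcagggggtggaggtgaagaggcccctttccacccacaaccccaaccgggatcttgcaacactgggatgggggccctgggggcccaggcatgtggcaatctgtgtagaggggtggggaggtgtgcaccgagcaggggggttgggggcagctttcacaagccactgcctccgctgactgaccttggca
RUNX1, intron, all 3 lists, chr21:36280701-36281000: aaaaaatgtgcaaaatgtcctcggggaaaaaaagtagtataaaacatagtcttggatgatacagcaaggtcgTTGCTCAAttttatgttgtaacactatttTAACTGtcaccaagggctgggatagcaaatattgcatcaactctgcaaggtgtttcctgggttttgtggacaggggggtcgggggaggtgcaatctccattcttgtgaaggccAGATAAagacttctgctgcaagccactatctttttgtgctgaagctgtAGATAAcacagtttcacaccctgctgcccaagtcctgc
SPI1, upstream flank, mock and Ara-C, chr11:47416351-47416600: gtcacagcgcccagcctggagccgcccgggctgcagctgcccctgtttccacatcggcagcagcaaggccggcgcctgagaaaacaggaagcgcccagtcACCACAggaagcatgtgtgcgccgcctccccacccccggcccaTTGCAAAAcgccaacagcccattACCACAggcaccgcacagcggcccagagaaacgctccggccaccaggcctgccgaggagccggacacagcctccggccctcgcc
CEBPA, downstream flank, mock and Ara-C, chr19:33751701-33751900: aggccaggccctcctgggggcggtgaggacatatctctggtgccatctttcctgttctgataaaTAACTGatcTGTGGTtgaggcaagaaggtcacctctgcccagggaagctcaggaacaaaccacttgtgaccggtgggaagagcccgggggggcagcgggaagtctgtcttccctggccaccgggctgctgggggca
CEBPE, downstream flank, mock and Ara-C, chr14:23582001-23582300: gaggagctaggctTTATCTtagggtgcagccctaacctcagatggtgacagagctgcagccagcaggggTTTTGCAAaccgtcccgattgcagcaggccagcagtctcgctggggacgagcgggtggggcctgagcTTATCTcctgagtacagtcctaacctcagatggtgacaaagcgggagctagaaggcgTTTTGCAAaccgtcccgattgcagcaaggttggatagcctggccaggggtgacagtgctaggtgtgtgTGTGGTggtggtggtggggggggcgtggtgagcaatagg
CEBPE, promoter, mock and Ara-C, chr14:23590101-23590300: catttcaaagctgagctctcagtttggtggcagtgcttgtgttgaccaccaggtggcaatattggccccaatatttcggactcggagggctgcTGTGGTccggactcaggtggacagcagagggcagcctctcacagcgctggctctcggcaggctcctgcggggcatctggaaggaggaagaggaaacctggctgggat
RUNX1, intron, mock and Ara-C, chr21:36238051-36238200: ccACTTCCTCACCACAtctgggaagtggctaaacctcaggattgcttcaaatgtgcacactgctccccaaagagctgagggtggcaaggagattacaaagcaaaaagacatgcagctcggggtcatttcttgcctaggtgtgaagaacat
RUNX1, intron, mock and Ara-C, chr21:36399076-36399375: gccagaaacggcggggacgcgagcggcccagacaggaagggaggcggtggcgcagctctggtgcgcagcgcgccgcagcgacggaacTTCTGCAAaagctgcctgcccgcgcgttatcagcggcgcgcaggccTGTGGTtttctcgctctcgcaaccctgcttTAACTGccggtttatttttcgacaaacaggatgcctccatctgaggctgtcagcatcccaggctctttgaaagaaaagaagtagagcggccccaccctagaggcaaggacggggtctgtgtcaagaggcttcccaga
LMO2, promoter, mock and Ara-C, chr11:33915301-33915550: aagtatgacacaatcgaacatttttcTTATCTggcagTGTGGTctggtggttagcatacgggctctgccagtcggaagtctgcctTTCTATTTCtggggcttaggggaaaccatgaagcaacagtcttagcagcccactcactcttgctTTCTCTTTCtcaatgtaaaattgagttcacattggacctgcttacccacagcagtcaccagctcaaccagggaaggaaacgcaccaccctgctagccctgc
CEBPB, downstream flank, mock and DNR, chr20:48836301-48836450: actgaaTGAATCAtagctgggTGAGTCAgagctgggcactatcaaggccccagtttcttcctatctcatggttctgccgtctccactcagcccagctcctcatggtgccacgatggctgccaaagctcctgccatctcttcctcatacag

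Of the 18 shared stretches, 9 held RUNX letters, 5 C/EBP, 5 MYB and 4 GATA letters. RUNX letters stood in 7 of the 10 chosen to be printed, and that count rests on the choice. The CEBPE stretch at chr14:23582001-23582300 held 2 copies of a 27-base sequence, gTTTTGCAAaccgtcccgattgcagca, which started at positions 69 and 193 and each carried a C/EBP match, and it also held 2 GATA matches and 1 RUNX match. At chr21:36238051-36238200 in RUNX1, a PU.1 match from position 3 was directly followed by a RUNX match from position 11. The SPI1 stretch held 2 RUNX matches and 1 C/EBP match, and the CEBPB stretch held 2 AP-1 matches, from positions 7 and 22. The CEBPE stretch that was called in all 3 lists held none of the motif letters searched. Such short words occur often. Among all mock peaks of 300 bp, C/EBP letters were found in 18.0%, RUNX letters in 20.8%, MYB letters in 24.8% and GATA letters in 12.8%. Among mock peaks of 150 bp, PU.1 letters were found in 1.17%, RUNX letters in 11.1% and AP-1 letters in 5.53%. These peaks have a fixed width and need not be shared, whereas the stretches were shared and 50 to 300 bp long, so the shares are not like for like.

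The windows were denser in peaks than their chromosomes in every list, but in DNR cells this did not hold beyond counting error against the nearer surroundings. Given the length of each window and the density of its own chromosome, 22.9 mock, 38.0 Ara-C and 17.8 DNR peaks would have lain in the 10 windows. The 75 mock peaks were 3.27 times that number (2.57 to 4.10), the 94 Ara-C peaks 2.47 times (2.00 to 3.02) and the 29 DNR peaks 1.63 times (1.09 to 2.34). All 3 intervals lay above 1. Against the density of 5 Mb on either side, the ratios were 2.53 (1.99 to 3.18), 2.07 (1.68 to 2.54) and 1.37 (0.916 to 1.96), and the DNR interval then held 1. The median window of the 10 genes held 55.5 mock, 75.9 Ara-C and 18.6 DNR peaks per Mb, and that of all coding genes held 18.9, 30.0 and 9.61. From mock to Ara-C the number in the windows rose 1.25-fold (0.915 to 1.72) against 1.63-fold for the whole lists, which lies inside the interval. From mock to DNR the ratio was 0.387 (0.243 to 0.601) against 0.754 for the whole lists, which lies outside it.

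**Figure D1:**
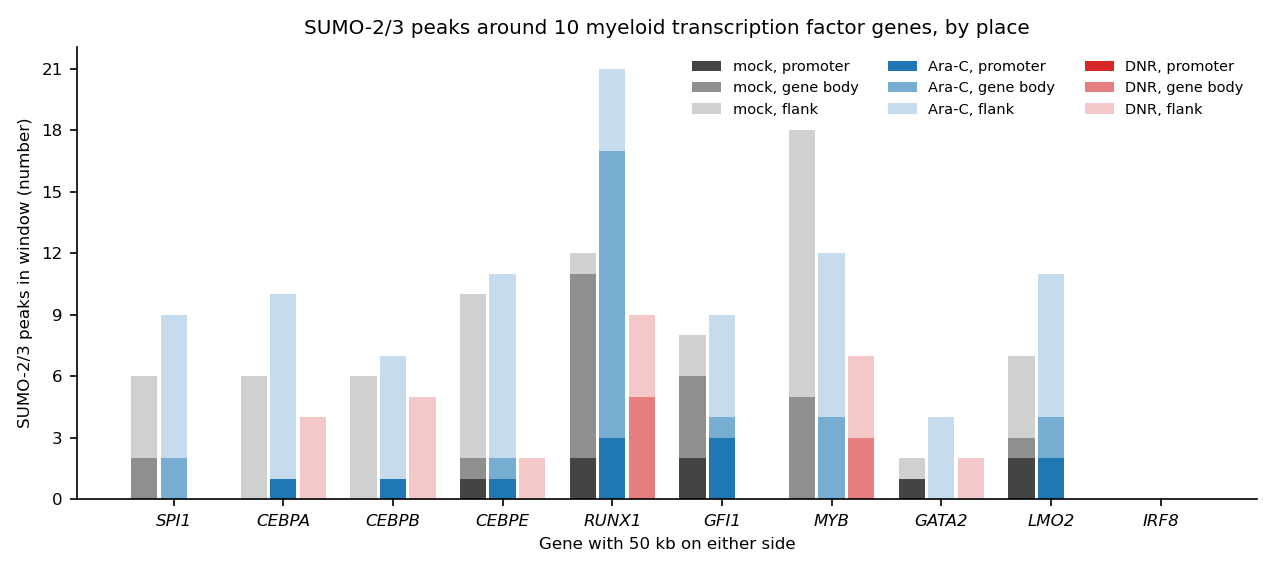
Number of SUMO-2/3 peaks in the window of each gene (y axis) in mock, Ara-C and DNR cells, stacked by place in the window (promoter, gene body, flank), with 1 library per treatment and no error bar. No DNR bar holds a promoter segment, SPI1, GFI1 and LMO2 have no DNR bar, and IRF8 has no bar at all.

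Split by place, the mock window peaks comprised 8 in promoters (from 2 kb upstream to 1 kb downstream of a transcription start site, TSS), 22 in gene bodies and 45 in flanks. The Ara-C list had 11, 24 and 59, and the DNR list had 0, 8 and 21. Per Mb, promoters held 156 mock peaks (67.4 to 307) and 215 Ara-C peaks (107 to 384), compared with 45.9 (33.5 to 61.4) and 60.2 (45.8 to 77.7) in the flanks. With all annotated transcripts, promoters were thus denser than flanks in mock and Ara-C cells by more than counting error. With the reference transcript of each gene alone they were not, since 5 mock and 6 Ara-C peaks over 30 kb gave 167 (54.1 to 389) and 200 per Mb (73.4 to 435), whose lower bounds fell inside the flank intervals of 33.5 to 61.4 and 46.7 to 78.8. Gene bodies held 57.5 mock peaks per Mb (36.0 to 87.0), an interval that overlapped that of the promoters, and 62.7 Ara-C peaks (40.2 to 93.3), which did not. In DNR cells the 51.3 kb of promoter held no peak, which allows up to 58.5 per Mb by the limit of 3 counts, whereas gene bodies held 20.9 per Mb (9.02 to 41.2) and flanks 21.4 (13.3 to 32.8). The DNR flank value lay below that limit, so a promoter density lower than that of the flanks was not detectable at this number of peaks. Of the gene body peaks, 16 of 22 mock, 21 of 24 Ara-C and 5 of 8 DNR peaks had their place in introns. Of the flank peaks, 3 mock, 3 Ara-C and 0 DNR peaks touched the promoter of another coding gene.

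A promoter peak was present at 5 of the 10 genes in mock cells (50%, 23.7 to 76.3), against 25.3% of all coding genes. In Ara-C cells it was present at 6 (60%, 31.3 to 83.2), against 30.8%. In DNR cells it was present at 0 (upper limit 27.8%), against 8.42%. The mock and DNR intervals held the value of all coding genes and the Ara-C interval lay just above it. That margin rests on all annotated transcripts. With the reference transcript of each gene alone, 4 genes had a promoter peak in mock and 5 in Ara-C cells. The interval of 5 of 10, 23.7 to 76.3, reaches below 30.8%. With all annotated transcripts, a promoter peak in mock or Ara-C cells together with none in DNR cells was found at 7 of the 10 genes, compared with 35.4% of all coding genes.

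The stem and progenitor factors are described first. RUNX1 encodes the DNA-binding subunit of core-binding factor, and its gene on the minus strand of chromosome 21 (36160098 to 36421641) is the longest of the 10, at 262 kb. Its window held 12 mock, 21 Ara-C and 9 DNR peaks, or 2.44, 2.34 and 1.88 times the chromosome's density. The distal promoter was called in mock and Ara-C cells, by a 300 bp mock peak from 36421301 to 36421600 and a 450 bp Ara-C peak from 36421451 to 36421900, and both spanned a TSS. The proximal promoter held a 300 bp mock peak from 36260201 to 36260500 and, 1100 bp away from it, a 200 bp Ara-C peak between 36258901 and 36259100. Another Ara-C promoter peak, 300 bp wide from 36423601 to 36423900, lay at -2.11 kb from the distal TSS and 2000 bp from the nearest mock peak. The distal promoter thus held 1 overlapping pair and 1 peak of Ara-C alone, and at the proximal promoter the lists did not overlap.

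Within the RUNX1 introns, the region from 36280601 to 36281200 was called in every list, with widths of 400 bp in mock, 600 bp in Ara-C and 400 bp in DNR cells. Its mock and DNR peaks had identical ends, 36280651 and 36281050, and their centre lay -19.9 kb from the nearest TSS, that of the proximal promoter. The stretch is printed above and carried 2 GATA matches, 1 C/EBP match and 1 MYB match. A second wide region, 22.4 kb downstream of the distal promoter, measured 500 bp in mock and 450 bp in Ara-C cells. The DNR list had its nearest peak 32850 bp from that mock peak. The intronic region with the joined PU.1 and RUNX letters measured 200 bp in mock and 300 bp in Ara-C cells. The other gene body peaks were each called in 1 list, and those of the DNR list were 150 to 250 bp wide.

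GATA2 encodes a zinc finger factor of haematopoietic stem cells. Its window (gene on chromosome 3, 128198270 to 128212044, minus strand) was the sparsest of those with peaks, with 2 mock, 4 Ara-C and 2 DNR peaks. None of the 8 overlapped another, and none was wider than 200 bp. The mock list placed 1 peak of 200 bp in a GATA2 promoter, from 128207601 to 128207800. The ratios to the chromosome were 1.74, 1.88 and 2.55, and the intervals of all 3 counts held the chromosome's density. With 100 kb flanks GATA2 had 3 mock, 5 Ara-C and 7 DNR peaks, and the DNR ratio of 4.75 (1.91 to 9.78) then lay above 1 by more than counting error, while with 25 kb flanks there was no DNR peak.

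LMO2 encodes a LIM-domain adaptor that bridges GATA and TAL1 proteins without binding DNA itself. Its window (chromosome 11, 33880122 to 33913623, minus strand) held 7 mock, 11 Ara-C and 0 DNR peaks, and the mock and Ara-C counts were 4.16 and 3.77 times the chromosome's density. The promoter printed above carried a 450 bp mock peak and a 250 bp Ara-C peak centred on the same base, at -1.80 kb from the TSS. A mock peak of 200 bp lay 0.123 kb downstream of the TSS and a 200 bp Ara-C peak lay at -0.877 kb, so the mock and Ara-C lists each had 2 LMO2 promoter peaks of which 1 was shared. A further upstream region was 350 bp wide in mock and in Ara-C cells, at -38.5 and -38.4 kb. The DNR peak nearest to any of these 18 peaks was 69950 bp away. The chromosome's density gave 1.14 DNR peaks for this window, a count of 0 allows up to 3, and 27.2% of coding gene windows on chromosome 11 held no DNR peak.

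MYB encodes the proto-oncoprotein that keeps progenitors proliferating. Its window (chromosome 6, 135502446 to 135540311, plus strand) held 18 mock peaks (10.7 to 28.4), 12 Ara-C peaks (6.20 to 21.0) and 7 DNR peaks (2.81 to 14.4). It was the one gene with fewer peaks under Ara-C than in mock, but the intervals overlapped and the order was not stable. With 100 kb flanks MYB had 27 mock and 29 Ara-C peaks, and among peaks of at least 200 bp GFI1 (5 mock, 3 Ara-C) and GATA2 (1 and 0) also had fewer under Ara-C. No list had a peak in a MYB promoter. The first gene body peak, 600 bp wide in mock cells from 135504851 to 135505450, lay 2.50 kb downstream of the nearest TSS and had no Ara-C or DNR counterpart. The region called in all 3 lists, from 135516551 to 135517150, overlapped an exon 14.2 kb downstream of the TSS and measured 550 bp in mock, 500 bp in Ara-C and 250 bp in DNR cells.

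The surroundings of MYB were dense as well. Within 5 Mb on either side there were 60.5 peaks per Mb in mock, 80.2 in Ara-C and 45.6 in DNR cells, against 26.0, 39.4 and 18.6 on chromosome 6 as a whole. Measured against this neighbourhood, the MYB ratio fell from 5.02 to 2.16 in mock, from 2.21 to 1.09 in Ara-C and from 2.73 to 1.11 in DNR cells. At CEBPE the mock ratio was 4.05 against the neighbourhood in place of 6.49. At CEBPA the neighbourhood was sparser than chromosome 19, and the ratios against it were higher, at 5.85, 4.85 and 4.87 in place of 2.90, 3.35 and 2.75.

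**Figure D2:**
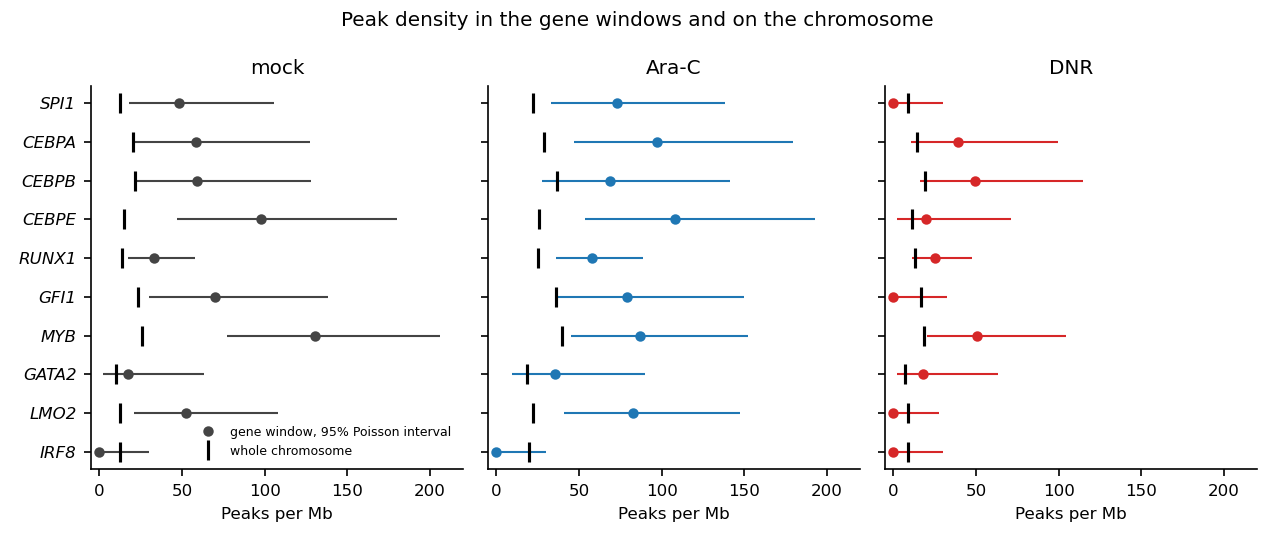
Peaks per Mb (x axis) in the window of each gene (points, with exact 95% Poisson intervals) and on its whole chromosome (black ticks) in mock, Ara-C and DNR cells. CEBPE (98.1 per Mb) and MYB (131 per Mb) stand furthest from their chromosome ticks in mock cells, and in DNR cells 9 of the 10 intervals, all but that of MYB, reach the tick.

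Each window was also ranked among the windows of all coding genes on its chromosome, which overlap one another and are not independent. In mock cells the CEBPE window was denser than 97.8% of them, that of MYB than 97.3%, that of GFI1 than 92.7%, CEBPB 92.4%, CEBPA 91.5%, LMO2 89.9%, SPI1 87.9%, RUNX1 84.2% and GATA2 59.7%. In Ara-C cells the order changed, with CEBPA (97.3%), CEBPE (95.5%) and LMO2 (95.1%) ahead of RUNX1 (92.1%), SPI1 (91.3%), GFI1 (87.2%), CEBPB (80.4%), MYB (78.4%) and GATA2 (70.9%). In DNR cells MYB (92.5%), CEBPB (91.8%) and CEBPA (90.3%) came before GATA2 (83.1%), RUNX1 (82.9%) and CEBPE (75.9%). The windows without a DNR peak, those of SPI1, GFI1, LMO2 and IRF8, stood at 0%, as did IRF8 in mock and Ara-C cells. The counting intervals of most of these windows overlapped, so the order within a list is a description of these counts.

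SPI1 encodes PU.1, an ETS-family factor needed for all myeloid cells. Its window (chromosome 11, 47376411 to 47400098, minus strand) held 6 mock, 9 Ara-C and 0 DNR peaks, none in a promoter. The mock and Ara-C windows were 3.85 and 3.33 times as dense as chromosome 11. The widest SPI1 region overlapped an exon in the distal part of the gene, with a 550 bp mock peak from 47381151 to 47381700 and a 400 bp Ara-C peak wholly inside it. The upstream region printed above was 250 bp wide in mock and 450 bp wide in Ara-C cells and lay at -16.4 kb from the TSS. A second upstream region was 200 bp wide in each list, at -11.7 kb in mock and -11.8 kb in Ara-C cells. An intronic region near the 5′ end, of 200 bp in mock and 150 bp in Ara-C cells, completed the shared sites inside or next to the gene. Counting a region at -48.0 kb, in the promoter of a neighbouring gene, 5 of the 6 mock peaks were found again in Ara-C cells. No SPI1 peak was called under DNR, where the chromosome's density gave 1.06 peaks for this window, a count of 0 allows up to 3 and 27.2% of coding gene windows on this chromosome held no DNR peak.

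CEBPA encodes the basic leucine zipper factor required for granulocyte commitment, and its gene (chromosome 19, 33790840 to 33793440, minus strand) is 2.60 kb long, so that nearly all its window was flank. The window held 6 mock, 10 Ara-C and 4 DNR peaks. With 25 kb flanks 1 mock and 2 DNR peaks were left, and the mock ratio to the chromosome fell from 2.90 to 0.943. The sole promoter peak was called in Ara-C cells, 250 bp wide from 33795151 to 33795400, at -1.84 kb from the TSS. The only CEBPA region shared by mock and Ara-C lay 41.7 kb downstream of the TSS, 250 bp wide in mock and 200 bp in Ara-C cells, and its printed stretch carried a MYB match and a RUNX match. A DNR peak of 150 bp ended 250 bp short of it. The region shared by Ara-C and DNR, from 33803801 to 33804000, had identical ends in both lists and lay at -10.5 kb. The widest CEBPA peak was a DNR peak of 600 bp from 33741051 to 33741650 at the far downstream edge of the window, which began at the base after a 250 bp mock peak ended.

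CEBPB, which encodes a C/EBP factor of stress granulopoiesis and macrophages, had similar counts in the 3 lists. Its window (chromosome 20, 48807367 to 48809205, plus strand) held 6 mock, 7 Ara-C and 5 DNR peaks, at 2.70, 1.88 and 2.60 times the chromosome's density. With 100 kb flanks the counts were 9, 13 and 11, so that DNR stood above mock. The promoter was called under Ara-C alone, by a 300 bp peak from 48806801 to 48807100. This peak held the one CTCF core match found among all window peaks. Upstream regions at -21.3 and -4.37 kb were shared by mock and Ara-C, and a downstream region at 29.0 kb was shared by mock and DNR, with a width of 200 bp in either list. It was the only region of the 10 windows called in mock and DNR but not in Ara-C.

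CEBPE encodes the C/EBP factor of late granulocyte maturation and of the secondary granules. Its window (chromosome 14, 23586515 to 23588464, minus strand) held 10 mock, 11 Ara-C and 2 DNR peaks. The DNR count was 1.79 times the chromosome's density, and 0.902 times with 100 kb flanks. In mock cells the window was 6.49 times as dense as the chromosome and denser than 97.8% of coding gene windows on chromosome 14, and in Ara-C cells 4.23 times and denser than 95.5%. The peaks gathered just downstream of the gene. The widest peak of all windows lay there, from 23582701 to 23583400, 5.41 kb downstream of the TSS and 700 bp wide in mock cells. The same centre carried a 600 bp Ara-C peak and a 200 bp DNR peak. A neighbouring region, 6.34 kb downstream, was 550 bp wide in mock and 400 bp in Ara-C cells and was absent from the DNR list, and it is the stretch with the repeated C/EBP letters. Mock peaks of 350 bp and 300 bp lay between these regions and the gene and overlapped no Ara-C peak. The nearest one, 150 bp wide from 23585801 to 23585950, was 500 bp from the second of them. The CEBPE promoter was called in mock (200 bp) and Ara-C cells (350 bp), at -1.74 and -1.71 kb.

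GFI1 encodes a zinc finger repressor that favours neutrophils over monocytes. Its window (chromosome 1, 92938600 to 92952482, minus strand) held 8 mock, 9 Ara-C and 0 DNR peaks. With all annotated transcripts GFI1 had 2 promoter peaks in mock and 3 in Ara-C cells, and with the reference transcript alone it had 1 and 0. One promoter region carried a 450 bp mock peak that covered a TSS, from 92951301 to 92951750, and a 200 bp Ara-C peak from 92951251 to 92951450. The other was 150 bp wide in mock and 300 bp in Ara-C cells. Widths thus moved in opposite directions at these neighbouring sites. A downstream flank region was 200 bp wide in mock and 550 bp in Ara-C cells, the largest widening under Ara-C in any shared region of the 10 genes. In DNR cells the chromosome's density gave 1.87 peaks for this window, 13.2% of coding gene windows on chromosome 1 had none, and the closest peak lay 104150 bp from any GFI1 peak.

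IRF8, the factor of monocytes and dendritic cells, had no peak in any list within its window (chromosome 16, gene from 85932768 to 85956212, plus strand). A count of 0 allows up to 24.3 peaks per Mb by the limit of 3 counts, and the chromosome held 12.6 mock, 19.6 Ara-C and 9.04 DNR peaks per Mb. An empty window was found at 5.70% of all coding genes and at 43 of 845 coding genes on chromosome 16, or 5.09%. The nearest peaks lay upstream of the gene at one place, a 200 bp mock peak and a 150 bp Ara-C peak that both started at 85863401 and a 150 bp DNR peak from 85863851 to 85864000. They were 69.2 kb (mock and Ara-C) and 68.8 kb (DNR) from the gene. IRF8 was the only one of the 10 genes without a peak. The chromosome's density gave 1.55 mock, 2.42 Ara-C and 1.12 DNR peaks for this window, each below the limit of 3 that a count of 0 allows. The lists cover the same window and are not independent, so these numbers were not added. Within 5 Mb on either side the densities were 16.7, 24.4 and 12.9 per Mb, and the Ara-C value was close to the limit of 24.3 and inside the exact Poisson interval, which reached 29.9. With 100 kb flanks it had 2 mock, 3 Ara-C and 1 DNR peaks.

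**Figure D3:**
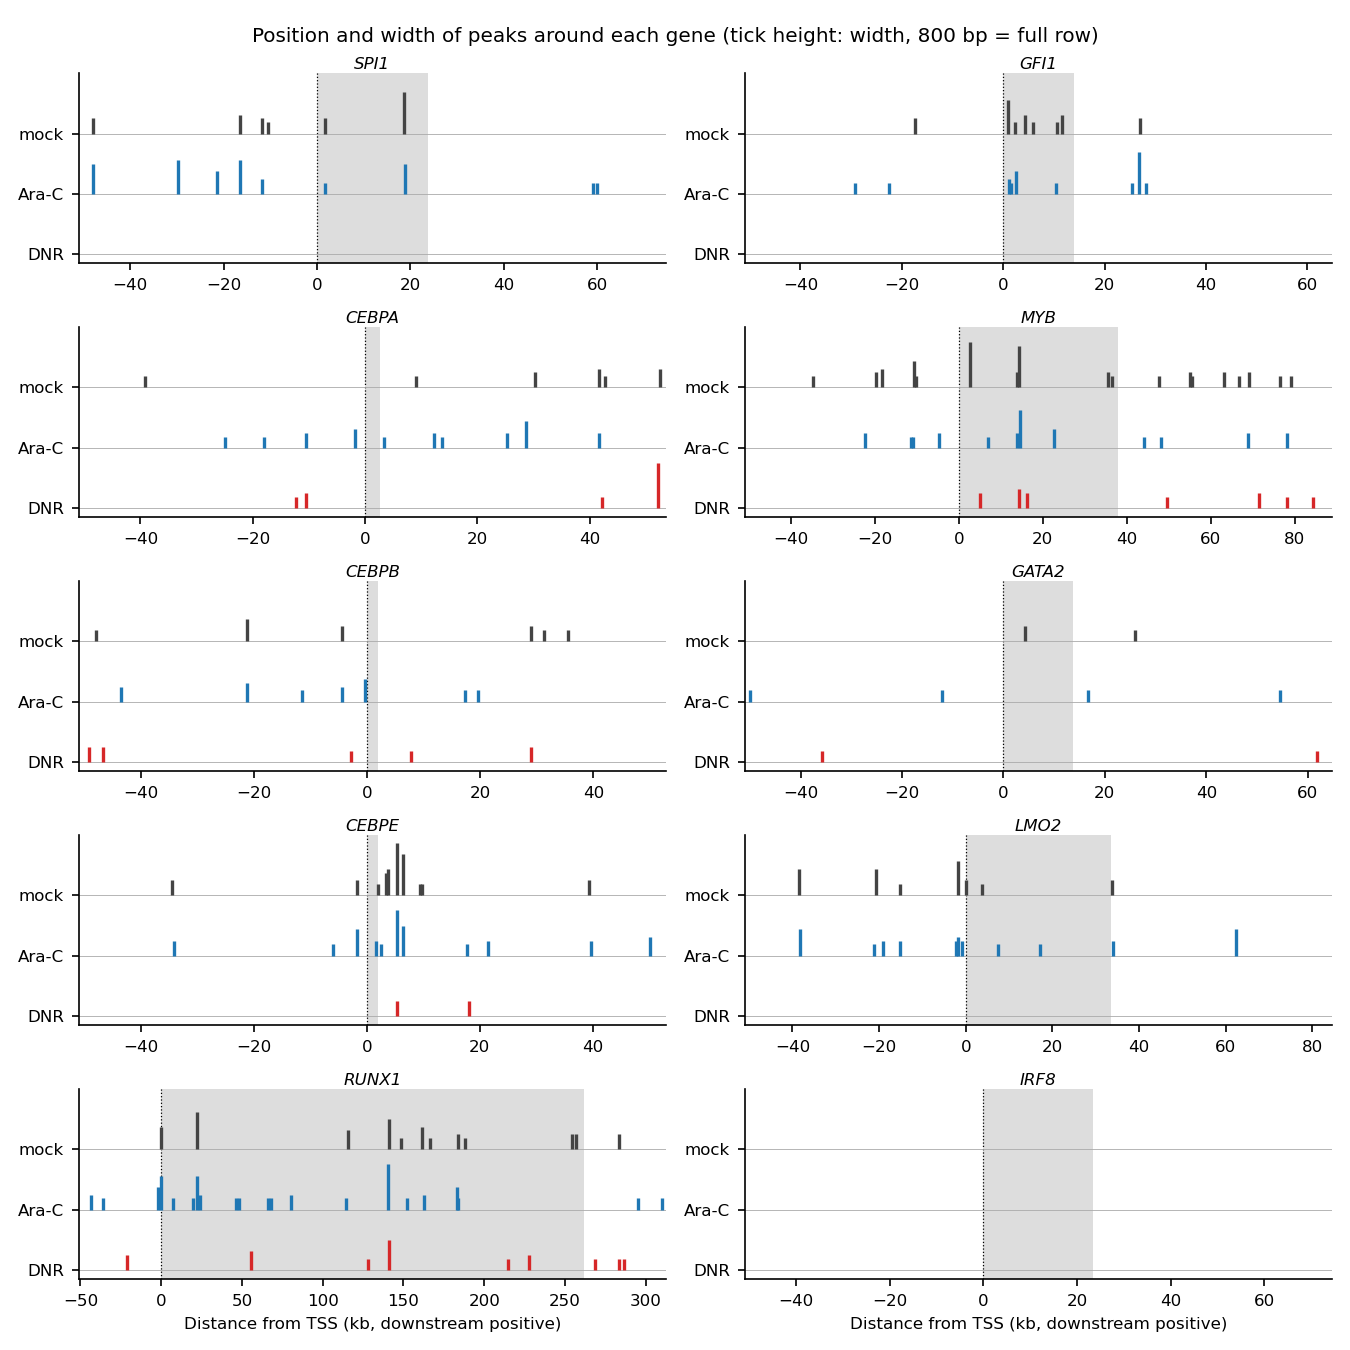
Position of each peak relative to the reference TSS of each gene (x axis, kb, downstream positive) in mock, Ara-C and DNR cells, with tick height giving peak width and the gene body shaded. The aligned tall ticks at CEBPE, in the RUNX1 intron and in MYB mark the 3 regions called in every list.

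In all windows together, and without matching for width, overlap of mock with Ara-C peaks was more frequent than over the whole mock list. At least 1 bp was shared by 24 of 75 peaks (32%, 22.5 to 43.2), against 16.1% of all mock peaks. Under DNR, 4 of 75 were found again (5.33%, 2.09 to 12.9), against 3.38%, which lies inside the interval. The share under Ara-C rose with peak width. Among mock window peaks of 150 bp, 3 of 27 were found again under Ara-C (11.1%, 3.85 to 28.1, against 6.41% of all mock peaks of that width). The share was 10 of 31 at 200 to 250 bp (32.3%, 18.6 to 49.9, against 18.5%) and 11 of 17 at 300 bp or more (64.7%, 41.3 to 82.7, against 58.6%). At like width, the interval thus held the share of all mock peaks at 150 bp and at 300 bp or more. At 200 to 250 bp it lay just above that share. Window peaks were wider than those of the list, and the part of width in the 32% was not tested. Of the 17 widest, 3 were found again under DNR (17.6%, 6.19 to 41.0, against 12.6%).

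By place, an Ara-C peak overlapped 5 of 8 mock promoter peaks, 8 of 22 gene body peaks and 11 of 45 flank peaks. Over all coding genes the shares were 36.3% of mock promoter peaks, 12.0% of gene body peaks and 19.2% of flank peaks. A DNR peak overlapped 0, 2 and 2 of the same window peaks, against 4.18%, 2.44% and 3.94% over all coding genes. The interval of 0 of 8 promoter peaks reached 32.4% and held the value of all coding genes, so the lack of promoter overlap under DNR was not separated from it. With all annotated transcripts, the 5 shared promoter regions, at CEBPE, RUNX1, GFI1 (2 regions) and LMO2, were called in mock and Ara-C and not in DNR. The 3 regions called in every list lay outside promoters, in a flank of CEBPE and in the bodies of RUNX1 and MYB. Only 14 of the 168 window regions lay in promoters, so 3 regions are too few to show a preference of place. Read from the drug lists, 24 of 94 Ara-C peaks (25.5%, 17.8 to 35.2, against 9.82% of the list) and 4 of 29 DNR peaks (13.8%, 5.50 to 30.6, against 4.48%) overlapped a mock peak, so that the DNR share exceeded its list by more than counting error in this direction. Of Ara-C peaks of 300 bp or more, 14 of 20 did so (70%, 48.1 to 85.5), against 45.6% of all Ara-C peaks of that width. Ara-C and DNR shared 5 window peaks, or 5.32% of the Ara-C (2.29 to 11.9, against 2.54% of the list) and 17.2% of the DNR peaks (7.60 to 34.5, against 5.52%).

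Window peaks were wider than the rest of their list in mock and Ara-C cells. Peaks of 300 bp or more made up 17 of 75 in mock (22.7%, 14.7 to 33.3, against 9.72% of the list) and 20 of 94 in Ara-C cells (21.3%, 14.2 to 30.6, against 7.93%). In DNR cells they made up 2 of 29 (6.90%, 1.91 to 22.0, against 5.26%). The mock and Ara-C shares exceeded the lists by more than counting error, and the DNR share did not. The 6 mock peaks of at least 500 bp belonged to CEBPE, MYB, SPI1 and RUNX1, the 4 Ara-C peaks to CEBPE, RUNX1, GFI1 and MYB, and the single DNR peak to CEBPA. Peaks shared with another list had a median width of 250 bp in mock (n = 25), 300 bp in Ara-C (n = 26) and 200 bp in DNR cells (n = 6). Peaks of a single list had medians of 200 bp (n = 50), 150 bp (n = 68) and 150 bp (n = 23).

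**Figure D4:**
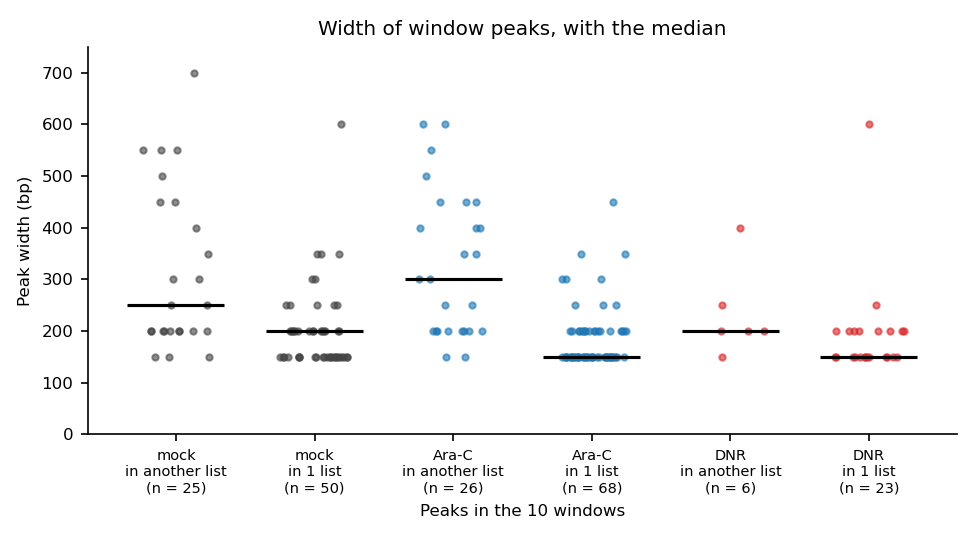
Width of each window peak (y axis, bp) in mock, Ara-C and DNR cells, split by whether another list overlapped it, with the median as a line and points spread sideways for clarity. Nearly all peaks of 400 bp or more lie in the shared groups, and the exceptions are a 600 bp mock peak at MYB, a 450 bp Ara-C peak at SPI1 and a 600 bp DNR peak at CEBPA.

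The letters of the 8 motifs were then counted in the window peaks and in all peaks of the same list at the same widths. RUNX letters were in 19 of 75 mock window peaks (25.3%, 16.9 to 36.2, against 17.1%) and C/EBP letters in 15 (20%, 12.5 to 30.4, against 13.9%). PU.1 letters were in 4 (5.33%, 2.09 to 12.9, against 2.65%). In all 24 combinations of motif and list, the interval of the window share held the share of all peaks, so no motif was more or less frequent in the windows beyond counting error. The CTCF core was found in 0 of 75 mock, 1 of 94 Ara-C and 0 of 29 DNR window peaks, against 3.37%, 2.05% and 0.719%. The letters were also counted in the merged regions, after their counts in the printed stretches had been seen. RUNX letters were in 15 of the 27 shared regions (55.6%, 37.3 to 72.4, against 24.0% of all 8880 shared regions of the lists), and C/EBP letters were in 8 (29.6%, 15.9 to 48.5, against 19.2%). Among the 141 regions of a single list, RUNX letters were in 16 (11.3%, 7.11 to 17.6, against 13.3%), C/EBP letters in 9 (6.38%, 3.39 to 11.7, against 10.2%) and AP-1 letters in 18 (12.8%, 8.23 to 19.3, against 6.37%). Of the 16 combinations of motif and kind of region, the interval left out the share of all regions at 2, RUNX in shared and AP-1 in single-list regions. The shared regions had a median width of 350 bp in the windows and 300 bp in all, the single-list regions 150 bp in both, and the part of width in these shares was not tested.

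Other gene lists were described in the same way. Among 38 other blood transcription factor genes, a promoter peak was present at 18 in mock (47.4%), 20 in Ara-C (52.6%) and 9 in DNR cells (23.7%, 13.0 to 39.2). Of 20 myeloid effector genes, such as those of granule proteins, 6, 9 and 3 had one, and of 15 lymphoid transcription factor genes, 4, 8 and 3. Of 20 transcription factor genes of non-blood lineages, 3, 0 and 3 had one. The share in mock and Ara-C cells was thus similar at the 10 genes and at the other blood factors. In DNR cells the value of 0 of 10 had an interval that overlapped each of these lists. The median window density of the other blood factors was 29.0 mock, 49.1 Ara-C and 15.98 DNR peaks per Mb. That of the effector genes was 45.5, 52.6 and 19.7, that of the lymphoid factors 22.6, 22.6 and 14.8, and that of the non-blood factors 15.7, 19.4 and 19.3. In DNR cells the effector and non-blood medians were above the 18.6 of the 10 genes. The widest mock promoter peaks of these lists were at MPO, the myeloperoxidase gene (650 bp), STAT3, a cytokine-signalling factor gene (600 bp), and AZU1, the azurocidin gene (450 bp). MPO had 4 promoter peaks in mock, 2 in Ara-C and 0 in DNR cells, AZU1 had 2, 3 and 0, and STAT3 had 1 in each list.

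**Figure D5:**
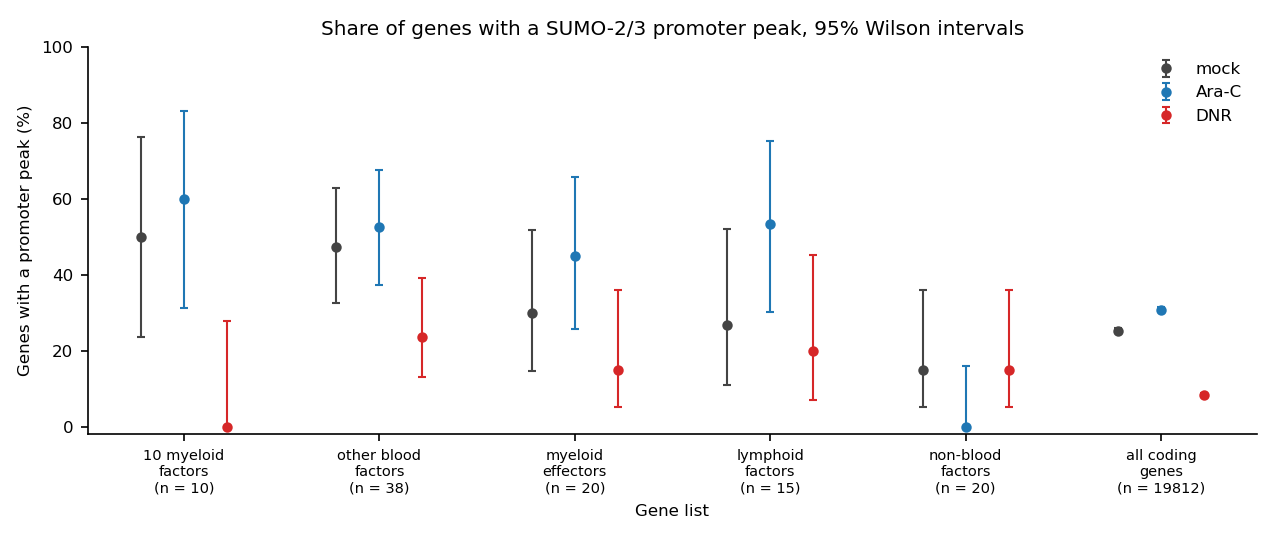
Share of genes with a SUMO-2/3 promoter peak (y axis, percent, with 95% Wilson intervals) for the 10 genes, 4 comparison lists and all coding genes in mock, Ara-C and DNR cells. The 10 genes lie at 50%, 60% and 0%, and all coding genes at 25.3%, 30.8% and 8.42%.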

How the data were processed

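SUMO-2/3 ChIP-seq peaks were analysed in HL-60 cells treated with H2O (mock), Ara-C or DNR, with 1 library per treatment made from 3 pooled biological replicates. The 6 samples include 3 inputs, which are not analysed here. The deposited peak lists used here hold a chromosome, start and end for each peak; reads and signal were not used here. The authors aligned reads to hg19 (CASAVA 1.8.2 in the submitters' processing notes) and used Pasha to keep uniquely placed reads, remove read pile-ups (threshold 5 in mock, 4 in treated cells), extend reads to 210 bp (mock, Ara-C) or 220 bp (DNR), bin at 50 bp, scale and subtract the input. Peaks were called by the authors where the signal exceeded 32 with gaps of at most 100 bp and runs longer than 100 bp, so the shortest run is 150 bp. Because this threshold was one number, depth, scaling and noise move the number of runs that pass it, and a missing peak means that no run passed, not that signal was absent.

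Genes and TSSs came from GENCODE 44 lifted to GRCh37, using 55871 TSSs of basic protein-coding transcripts in 19812 genes. A peak was placed as promoter when it overlapped 2 kb upstream to 1 kb downstream of a TSS by at least 1 bp, otherwise as gene body or flank. Distances run from the peak centre to the nearest TSS, negative upstream, and positions are 1-based. Overlap required 1 bp and was checked against bedtools 2.31.1 with 0 differences. Expected numbers came from the density over the sequenced bases of each chromosome. Numbers carry exact Poisson intervals and shares carry Wilson intervals. The promoter lookup was checked on simulated peaks planted inside the promoters of 100 genes, and 100 of 100 genes were found. This check does not cover false hits, gene bodies, flanks or densities. Python 3.11.15, pandas 2.3.3, scipy 1.17.1 and pysam 0.24.0 were used.

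The 10 genes, the comparison lists and the rules were chosen with earlier results of these data known. All 10 genes are named. Other genes are named where their promoter held a window peak that was in all 3 lists or at least 500 bp wide, which none did, and for the 3 widest mock promoter peaks of the comparison lists. Sequences were planned for promoter and gene body peaks called in 2 or more lists, and flank sequences were added after their values had been seen. Alternatives were a minimum width of 200 bp, the reference transcript alone, flanks of 25 and 100 kb, the density of 5 Mb on either side, and other overlap rules.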

Additional observations from a re-analysis of the deposited data

How the results depend on the processing

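No paired analysis was possible because there was a single library of each treatment. Of 9 other settings, 6 were run for the density ratios over the 10 windows, which stayed above 1 in these 6. For single genes, the order of mock and a drug turned in 5 of 100 comparisons of window counts and became or ceased to be equal in 12. With peaks of at least 200 bp GFI1 had 5 mock and 3 Ara-C peaks and GATA2 1 and 0, with 100 kb flanks MYB had 27 mock and 29 Ara-C peaks and CEBPB 9 mock and 11 DNR peaks, and with 25 kb flanks CEBPA had 1 mock and 2 DNR peaks. Density ratios crossed 1 at CEBPA in mock (0.943 with 25 kb flanks), at CEBPE and SPI1 in DNR (0.902 and 1.04 with 100 kb flanks), and at GATA2, which had 0 Ara-C and 0 DNR peaks of at least 200 bp and 0 DNR peaks with 25 kb flanks. For the main results, 11 values moved beyond counting error (for counts, beyond 1.5 times) and 60 did not. For single genes, 47 moved and 403 did not. With peaks of at least 200 bp, the windows held 48 mock, 51 Ara-C and 15 DNR peaks, and the mock density ratio was 4.22. The reference transcript alone left 5 mock and 6 Ara-C promoter peaks, since fewer TSSs enter. Flanks of 25 kb left 19 DNR window peaks and flanks of 100 kb gave 53, by construction, and the latter lowered the mock density ratio to 2.52. The density of 5 Mb on either side gave a mock ratio of 2.53 and a DNR ratio of 1.37, whose interval (0.916 to 1.96) held 1. A peak within 500 bp accepted as found again gave 44% for mock peaks under Ara-C. Where no construction is named, the cause was not tested. The DNR list had 0 promoter peaks at the 10 genes under every alternative run.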
